A study of Mus musculus with 4 samples.

Results

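The constitutive proteasome genes are those that encode the subunits, activators, inhibitor and assembly chaperones of the proteasome, the large protease that degrades ubiquitin-tagged proteins. They were found by symbol, as protein-coding genes of GENCODE release M21 (mouse build GRCm38) whose name starts with Psma, Psmb, Psmc, Psmd, Psme, Psmf or Psmg and a digit, without the interferon-inducible subunits Psmb8, Psmb9 and Psmb10. This gave 47 genes of 55573 gene IDs in the files. The samples are quadriceps muscles of mice 7 weeks old, with 2 RNA-seq libraries from Vdr knockout mice (strain B6.129S4-Vdrtm1Mbd/J, genotype vdr-/-) and 2 from wild-type (WT) C57BL/6J mice. The knockout lacks a functional vitamin D receptor in every cell. Both groups had regular chow and water without restriction from weaning at 21 days, and no other allele or agent is given. Each group's libraries are numbered 1 and 2, and no label says whether they are separate animals, so the p-values measure library-to-library spread that could be technical.

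The core of the proteasome, the 20S particle, is a barrel of alpha rings at the ends and beta rings in the middle, and 3 kinds of beta subunit cut peptide bonds inside it. The 19S cap sits on the barrel. It binds ubiquitin chains and removes them, and its ring of ATPases unfolds the substrate and opens the gate of the alpha ring. The barrel with its caps is called the 26S proteasome, and other activators can take the place of the cap. In muscle the 26S proteasome degrades myofibrillar proteins, and many of its subunit genes are known to be induced together during atrophy or after proteasome inhibition, the second through the transcription factor NRF1 (gene Nfe2l1).

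Total counts were between 10.79 M and 21.34 M per library, and 46.1% to 48.8% of counts fell on mt-Rnr1, mt-Rnr2 and Rn7sk in each. Replicates differed beyond counting noise, with a chi-square per degree of freedom of 12.5 between the knockout libraries and 8.04 between the WT libraries. Vdr itself had 5 and 1 counts in the knockout libraries and 5 and 0 in the WT libraries, which does not check the labels. Muscle fibre markers were all tested, 12 of 12, and summed to 88952 and 89066 CPM (counts scaled to the library total, with TMM factors) in the knockout and 102254 and 94648 CPM in WT. Xist, the RNA of the inactive X chromosome of females, had 0 and 3 counts in the knockout and 1929 and 2778 in WT. The Y-linked gene Ddx3y had 1594 and 739 counts in the knockout and 50 and 0 in WT. WT replicate 1 thus carried Y-linked counts against its group, as it did for Eif2s3y (21), Kdm5d (13) and Uty (11), which had 0 or 1 in WT replicate 2. In CPM its Ddx3y was 4.74, against 75.8 and 63.0 in the knockout. What this RNA is was not tested, and the cap median, Psmc2, Psmd6, Psmd7 and Psme4 are also given without this library. Genotype and sex therefore cannot be told apart in any comparison below. The strain given also differs between the groups, so strain cannot be told apart from genotype either.

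No proteasome gene passed the test between knockout and WT muscle. Of the 47, 45 passed the filter on low counts, and edgeR's quasi-likelihood test called 0 of them higher and 0 lower at a Benjamini-Hochberg adjusted p below 0.05, where 2.03% of all 13076 tested genes were called (1.61% higher and 0.413% lower). The smallest adjusted p among the 45 was 0.0855, for Psme4. At an unadjusted p below 0.05 there were 8 genes, 6 lower and 2 higher in the knockout, against 5.90% lower and 8.08% higher over all tested genes. DESeq2 called 1 of the 45, Psme4, lower, and gave no adjusted p for Psme2b and Psmc3ip. The median log2 fold change (knockout over WT) of the 45 genes was -0.05, and that of all tested genes was -0.00069. Negative values were held by 27 of the 45 (60.0%), against 50.1% of all tested genes. Signs changed for 3 to 9 of the 45 genes when 1 library was left out, the most without WT replicate 2. For 37 of the 45 the 95% interval of the fold change held 1.

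**Figure D1:**
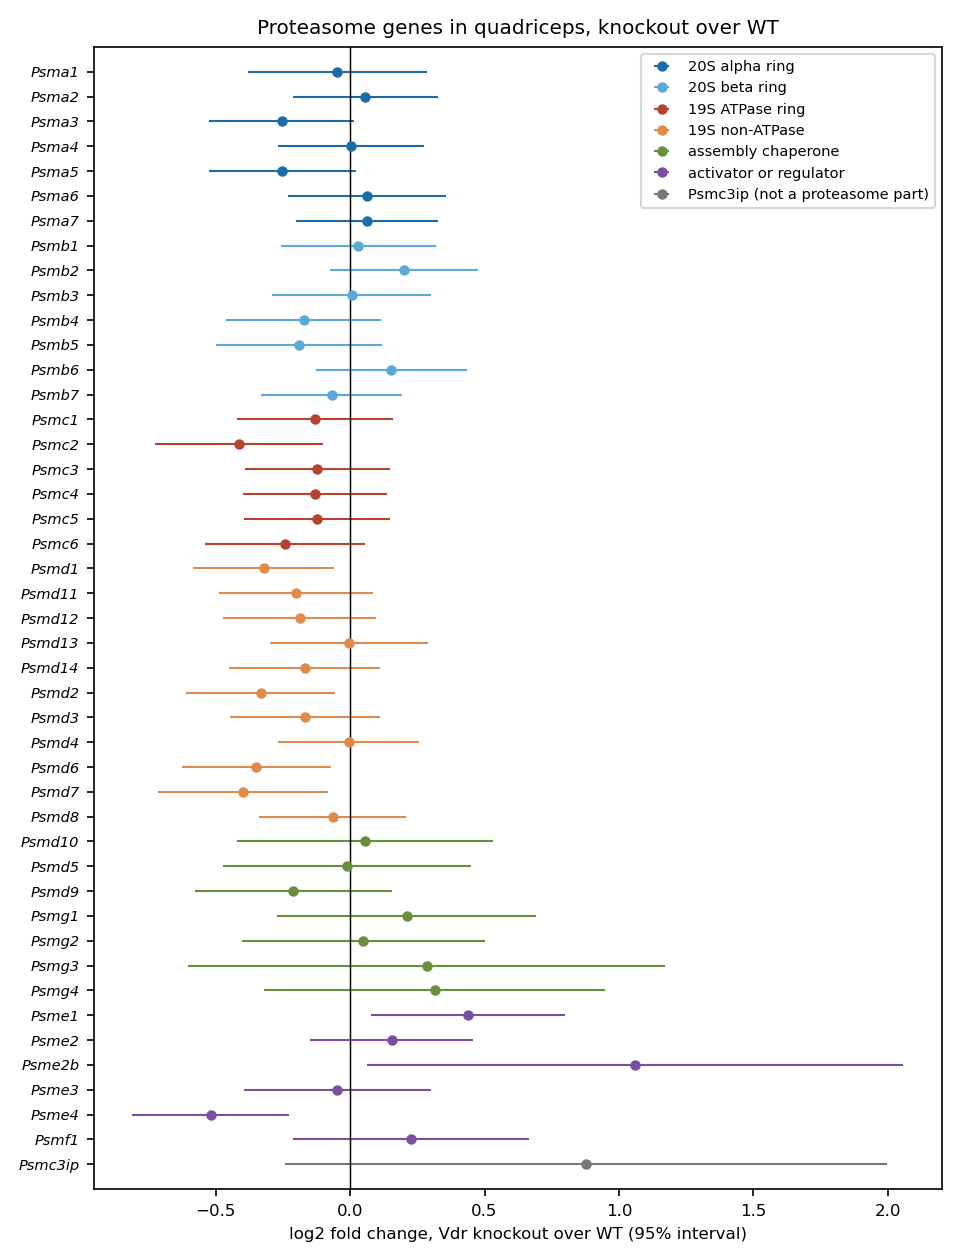
Log2 fold change of the 45 tested proteasome genes, Vdr knockout over WT, with 95% intervals from edgeR's quasi-likelihood fit; colours mark the role. All 17 genes of the 19S cap found by symbol lie left of 0, and the 14 of the 20S core lie on both sides. Psme4 lies farthest left (-0.52).

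The groups of libraries did not overlap for 28 of the 45 genes, which is 62.2% against 44.7% of all tested genes. Knockout lay below WT for 20 genes (44.4%, against 21.7% of all tested genes) and above WT for 8 (17.8%, against 23.0%). The 20 included 13 of 17 tested 19S genes, 5 of 14 tested 20S genes, 1 of 7 assembly chaperones and 1 of 6 activators and regulators.

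The alpha ring forms the gate of the barrel, and none of its genes was called. Of 8 genes 7 were tested, 4 had a positive and 3 a negative log2 fold change, and the median was 0.0045. Psma5 had 33.4 and 32.6 CPM in the knockout libraries and 40.2 and 38.5 CPM in the WT libraries, a log2 fold change of -0.25 ± 0.12 (SE, adjusted p = 0.408). Psma3 had 88.6 and 96.9 CPM in the knockout and 114 and 107 CPM in WT (-0.25 ± 0.12, adjusted p = 0.401). In these 2 genes both knockout libraries lay below both WT libraries, while in Psma7 knockout lay above WT and in Psma1, Psma2, Psma4 and Psma6 the groups overlapped. Knockout thus lay below WT in 28.6% of the 7 and above in 14.3%, against 21.7% and 23.0% of all tested genes. Psma6 had 61.5 and 55.7 CPM in the knockout and 60.9 and 51.4 CPM in WT, and its log2 fold change of 0.06 ran from -0.06 to 0.19 when 1 WT library was left out. Psma8, the alpha subunit of testis proteasomes, was the gene not tested, with 5 and 0 counts in the knockout and 1 and 1 in WT.

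The beta ring holds the proteolytic sites. Of 8 genes 7 were tested, with a median log2 fold change of 0.0071 and single values from -0.19 to 0.20. The 3 catalytic genes did not share a direction. Psmb5, the chymotrypsin-like subunit, had 19.96 and 23.0 CPM in the knockout and 24.7 and 24.2 CPM in WT (-0.19 ± 0.14, adjusted p = 0.611), from -0.29 to -0.09 when 1 knockout library was left out. Psmb6, the caspase-like subunit, had 95.5 and 108 CPM in the knockout and 87.0 and 95.8 CPM in WT (0.15 ± 0.13, adjusted p = 0.661), from 0.07 to 0.24 when 1 knockout library was left out. Psmb7, the trypsin-like subunit, had 102 and 104 CPM in the knockout and 111 and 106 CPM in WT (-0.07 ± 0.12, adjusted p = 0.864). Of these, only Psmb6 had overlapping groups. Over the 7 tested beta genes the groups did not overlap in 57.1%, against 44.7% of all tested genes. Among the other beta genes, Psmb2 had 46.5 and 42.7 CPM in the knockout and 40.2 and 37.5 CPM in WT (0.20 ± 0.12, adjusted p = 0.532), the highest fold change of the core. Psmb11, the beta subunit of thymus epithelium, had 0 counts in each of the 4 libraries. At the depth of these libraries 3 counts would be 0.143 and 0.256 CPM in the knockout and 0.284 and 0.234 CPM in WT, so Psmb11 lay below those levels. Psmb11 lies only 3.41 kb from Psmb5 on chromosome 14.

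All 6 ATPase genes of the 19S cap had a negative log2 fold change, between -0.41 and -0.12, and a median of -0.13. Psmc2 was the lowest in the knockout relative to WT, with 38.5 and 39.8 CPM in the knockout and 58.2 and 46.1 CPM in WT (-0.41 ± 0.14, adjusted p = 0.208). The higher of its WT values, in WT replicate 1, set much of this, since the log2 fold change came to -0.23 without that library and to -0.57 when WT replicate 2 was left out. Psmc6 had 69.1 and 56.4 CPM in the knockout and 75.1 and 73.5 CPM in WT (-0.24 ± 0.13, adjusted p = 0.478), and its log2 fold change was -0.10 without knockout replicate 2 and -0.40 without knockout replicate 1. Psmc3 had 102 and 95.4 CPM in the knockout and 103 and 111 CPM in WT (-0.12 ± 0.12, adjusted p = 0.736), from -0.17 to -0.07 when 1 library was left out. In these 3 genes the groups did not overlap, and of the 6 only Psmc1 had overlapping groups. Knockout thus lay below WT in 83.3% of the ATPase genes, against 21.7% of all tested genes.

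The non-ATPase genes of the cap encode its scaffold, its ubiquitin receptors and its deubiquitinase. All 11 had a negative log2 fold change, between -0.40 and -0.0049, with a median of -0.19. Psmd7, which pairs with the deubiquitinase, had 33.8 and 37.4 CPM in the knockout and 51.9 and 41.9 CPM in WT (-0.40 ± 0.14, adjusted p = 0.231). The scaffold gene Psmd6 had 56.8 and 58.4 CPM in the knockout and 78.5 and 68.3 CPM in WT (-0.35 ± 0.13, adjusted p = 0.233). As with Psmc2, WT replicate 1 held the highest value, and the log2 fold change without it was -0.23 for Psmd7 and -0.24 for Psmd6. The large scaffold genes were similar. Psmd2 had 94.3 and 97.7 CPM in the knockout and 129 and 113 CPM in WT (-0.33 ± 0.12, adjusted p = 0.257), and Psmd1 had 54.7 and 54.4 CPM in the knockout and 69.4 and 66.9 CPM in WT (-0.32 ± 0.12, adjusted p = 0.240). In both genes the knockout libraries lay close together and below either WT library. Psmd11, another scaffold subunit, had 33.0 and 34.4 CPM in the knockout and 41.1 and 36.4 CPM in WT (-0.20 ± 0.13, adjusted p = 0.550). Psmd14, the deubiquitinase, had 29.1 and 28.1 CPM in the knockout and 32.9 and 31.4 CPM in WT (-0.17 ± 0.13, adjusted p = 0.624). The ubiquitin receptor Psmd4 had 71.4 and 73.8 CPM in the knockout and 71.1 and 74.5 CPM in WT, and its groups overlapped, as did those of Psmd8 and Psmd13. In the other 8 of the 11 (72.7%) knockout lay below WT, against 21.7% of all tested genes.

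**Figure D2:**
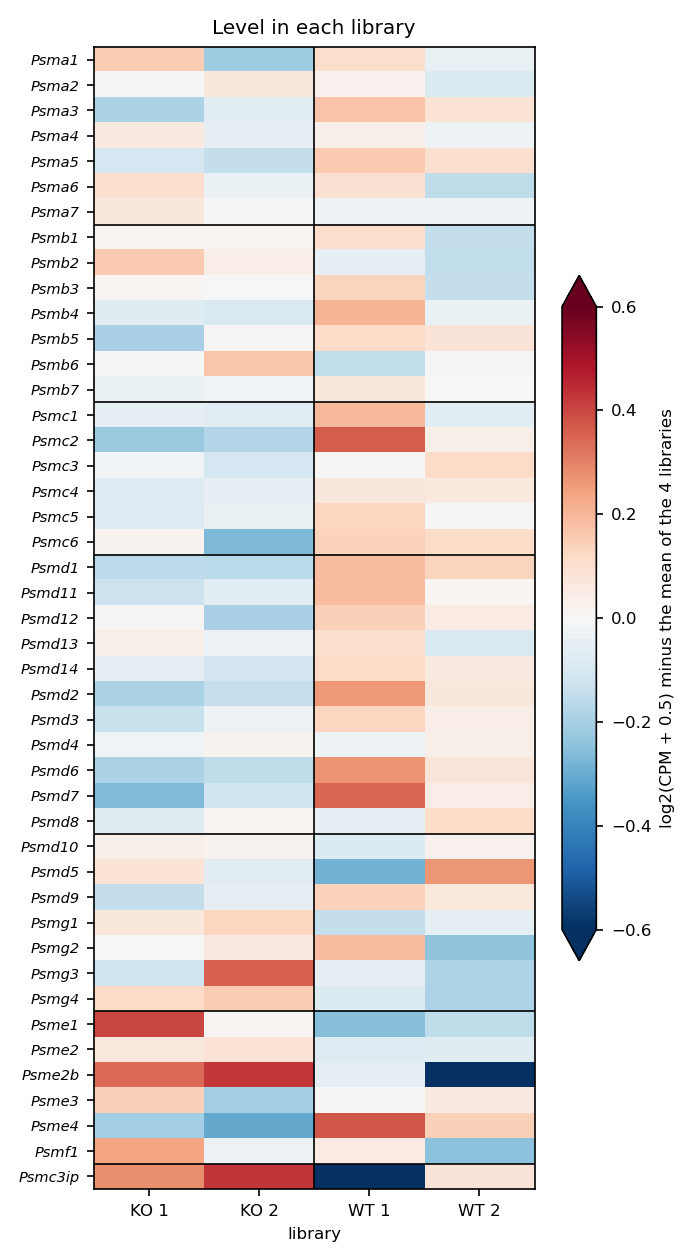
Level of each tested proteasome gene in each library, as log2(CPM + 0.5) minus the mean of the 4 libraries; horizontal lines part the roles and the vertical line parts knockout from WT. In the 2 blocks of the 19S cap the knockout columns are mostly blue and the WT columns mostly red, with WT 1 the darker, while the 20S blocks at the top are mixed.

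Cap and core thus stood in a different proportion in the 2 genotypes of these libraries. Cap and core here hold only genes found by symbol. The subunits Adrm1 and Sem1, which carry other symbols, were left out (log2 fold changes -0.18 ± 0.13 and -0.14 ± 0.13, neither called). The summed CPM of the 17 cap genes was 900.4 and 894 in the knockout and 1064 and 999 in WT, and that of the 16 core genes was 827.1 and 827.3 in the knockout and 871 and 813 in WT. The ratio of cap to core within a library, which no scaling of libraries can alter, was 1.09 and 1.08 in the knockout and 1.22 and 1.23 in WT. The ratio was thus lower in each knockout library than in each WT library, with 2 libraries a group and no test. The median log2 fold change was -0.17 for the cap, with values from -0.41 to -0.0049, and 0.0058 for the core, with values from -0.25 to 0.20. Leaving out each library in turn gave cap medians from -0.24 to -0.14 and core medians from -0.10 to 0.05. The cap medians nearest 0 were those without WT replicate 1 (-0.137) and without knockout replicate 2 (-0.139). Without TMM scaling, on library totals alone, the median of all tested genes moved to 0.05. In that fit 15 of the 17 cap genes had a negative log2 fold change, against all 17 in the main fit. The count was also 15 without the filter on low counts, without WT replicate 1 and without WT replicate 2. It was 16 without knockout replicate 1 and 16 without knockout replicate 2.

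WT replicate 1 held the higher WT value for 27 of the 31 tested subunit genes, whereas knockout replicate 1 held the higher knockout value for 15 of the 31. Transcript length went along with the fold change. The median length of the principal transcript was 1636 bases in cap genes and 1162.5 bases in tested core genes, and Spearman's rho between length and log2 fold change was -0.52 over the 31 subunit genes, which share the same 4 libraries. Over all tested protein-coding genes with a length, the median log2 fold change was 0.04 for transcripts under 1500 bases, 0.04 from 1500 to below 3000 bases, -0.01 from 3000 to below 6000 bases and -0.06 at 6000 bases or more. The part of length in the values of the cap was not tested. The heat shock list was lower in the same libraries, with 7 of 16 genes called lower and none higher. Over all tested genes 0.413% were called lower and 1.61% higher. The list had a median of -0.78, and a sum of 1691 and 1542 CPM in the knockout and 2770 and 2434 CPM in WT. Its part in the proteasome values was not tested.

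Other activators of the core are encoded by the Psme genes. Psme4 encodes PA200, a large ring-shaped activator that opens the gate without ATP and is known for the degradation of acetylated histones. It lies on chromosome 11 (30771726 to 30880361 on GRCm38) and had 3051 and 1585 counts in the knockout and 2286 and 2368 in WT. This was 145 and 135 CPM in the knockout and 217 and 185 CPM in WT. The log2 fold change was -0.52 ± 0.13 (adjusted p = 0.0855), with a 95% interval of the fold change from 0.571 to 0.854. Both knockout libraries lay below both WT libraries. The call depended on the method, since Psme4 was called with DESeq2 (adjusted p = 0.0206), with edgeR without a filter on low counts (adjusted p = 0.0315) and with edgeR without WT replicate 2 (-0.63, adjusted p = 0.0440), and it was at -0.40 without WT replicate 1. Its principal transcript of 6491 bases is the longest of the 47 genes. Of the 250 bases before its RefSeq start (chr11:30771525-30771774, plus strand, GRCm38.p6), shown because Psme4 stood farthest from no change among the lower genes, none matched the motifs searched below.
Psme4: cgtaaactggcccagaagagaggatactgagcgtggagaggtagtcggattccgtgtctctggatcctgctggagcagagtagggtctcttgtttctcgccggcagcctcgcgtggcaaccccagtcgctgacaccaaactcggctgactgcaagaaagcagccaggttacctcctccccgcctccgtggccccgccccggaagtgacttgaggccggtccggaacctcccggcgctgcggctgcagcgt

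Psme1 and Psme2 encode the alpha and beta subunits of PA28, an interferon-inducible ring that helps produce peptides for antigen presentation, and they lie 5.91 kb apart on chromosome 14. Psme1 had 27.1 and 20.6 CPM in the knockout and 17.1 and 18.3 CPM in WT (0.44 ± 0.16, adjusted p = 0.247). Its value in knockout replicate 1 stood above the other 3, and without that library the log2 fold change was 0.22. That library also held most neutrophil marker counts (values given with the markers), whose part in Psme1 and in Psmb8 was not tested. Psme2 had 19.8 and 20.1 CPM in the knockout and 17.9 and 17.9 CPM in WT (0.16 ± 0.14, adjusted p = 0.690). The groups of both genes did not overlap, with knockout above WT, as in 23.0% of all tested genes. Psme2b, a copy on chromosome 11 whose transcript is 99.4% identical to that of Psme2 over 794 aligned bases, had 35 and 21 counts in the knockout and 12 and 7 in WT (1.06 ± 0.45, adjusted p = 0.319). Leaving out WT replicate 1 moved its log2 fold change to 1.64, and leaving out WT replicate 2 moved it to 0.59. Reads of Psme2 and Psme2b can hardly be told apart, so both counts are uncertain.

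Psme3, the nuclear activator PA28 gamma, had 22.3 and 17.4 CPM in the knockout and 20.3 and 21.0 CPM in WT (-0.05 ± 0.16, adjusted p = 0.938). Psmf1, known as an inhibitor of the core in vitro, had 9.79 and 8.02 CPM in the knockout and 8.53 and 6.87 CPM in WT (0.23 ± 0.20, adjusted p = 0.689), with log2 fold changes from 0.06 (without knockout replicate 1) to 0.39 (without WT replicate 1). The groups overlapped for each of these 2 genes. On the mean of all libraries Psme4 had the highest level per kb of exon, at 20.3 CPM per kb. Psme1 had 9.41, Psme2 10.7 and Psme3 6.87. Per kb of the principal transcript the means were 26.3 for Psme4, 18.7 for Psme1, 19.7 for Psme2 and 7.60 for Psme3. On that length Psme1 stood above Psme4 in knockout replicate 1 (24.4 against 22.3). Psme2 stood just above Psme4 in knockout replicate 2 (20.9 against 20.8).

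**Figure D3:**
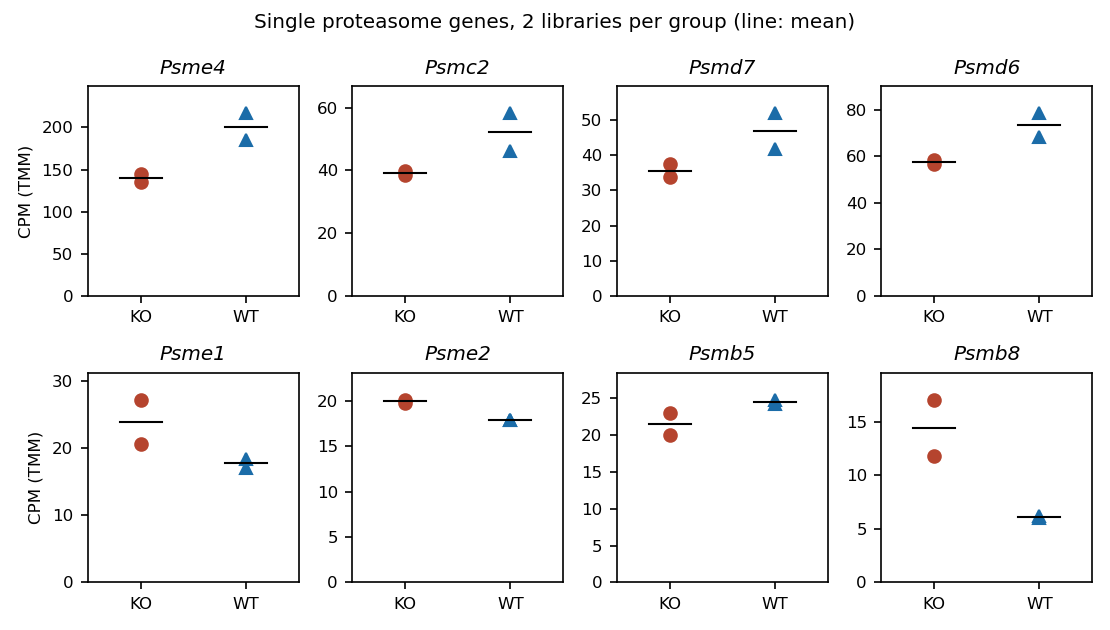
CPM of 8 genes in each library (circles, 2 knockout; triangles, 2 WT; line, group mean; axes start at 0). Psme4, Psmc2, Psmd7 and Psmd6 lie lower in both knockout libraries, Psme1 and Psme2 higher, Psmb5 lower by a small margin, and Psmb8, the interferon-inducible counterpart of Psmb5, at 17.0 and 11.8 CPM against 6.16 and 6.01 CPM.

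The assembly chaperones build the barrel and the cap and leave the finished particle. None of the 7 tested genes was called, 5 had a positive and 2 a negative log2 fold change, and the median was 0.06. Psmg4, a partner of Psmg3 in building the alpha ring, had 2.90 and 2.98 CPM in the knockout and 2.46 and 2.26 CPM in WT (0.32 ± 0.28, adjusted p = 0.702). Psmg3 had 1.33 and 2.05 CPM in the knockout and 1.42 and 1.25 CPM in WT (0.28 ± 0.40, adjusted p = 0.828), a log2 fold change that was 0.0055 without knockout replicate 2 and 0.61 without knockout replicate 1. Psmd9, a chaperone of the ATPase ring, had 9.13 and 9.72 CPM in the knockout and 11.2 and 10.6 CPM in WT (-0.21 ± 0.16, adjusted p = 0.641). The groups of Psmg4 and Psmd9 did not overlap, in opposite directions, and those of Psmg3 did. Over the 7 chaperones the groups did not overlap in 42.9%, against 44.7% of all tested genes. These genes had between 15 and 221 counts per library, against 261 to 2154 for the tested subunits, and their intervals were wider, up to a 2.25-fold increase for Psmg3. No 26S subunit had an interval reaching below 0.605 or above 1.39 times WT.

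Psmc3ip meets the rule for symbols but encodes a cofactor of meiotic recombination and no proteasome part. It had 28 and 18 counts in the knockout and 4 and 14 in WT (0.88 ± 0.50, adjusted p = 0.496), and the log2 fold change became 1.87 without WT replicate 2 and 0.37 without WT replicate 1. Both knockout libraries lay above both WT libraries in CPM. Without it the median log2 fold change of the tested genes was -0.06.

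Levels between genes were compared as CPM per kb of exon. The subunit genes stood well above the chaperones, with medians of 20.3 for the alpha ring, 27.9 for the beta ring, 25.2 for the ATPases, 18.1 for the non-ATPases and 3.44 for the chaperones. Within the 26S genes the level ran from 5.68 for Psmd11, a scaffold subunit of the cap, to 51.6 for Psmb6, a 9.09-fold range among genes whose proteins enter the particle in near-equal numbers. The order depends on which length is used. Per kb of the principal transcript in place of all exons, Psmb6 and Psmd11 again stood at the ends, at 121 and 12.7, but the highest alpha gene was Psma7 (68.1) in place of Psma6. The lowest ATPase gene was Psmc2 and the highest Psmc3 on either length.

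**Figure D4:**
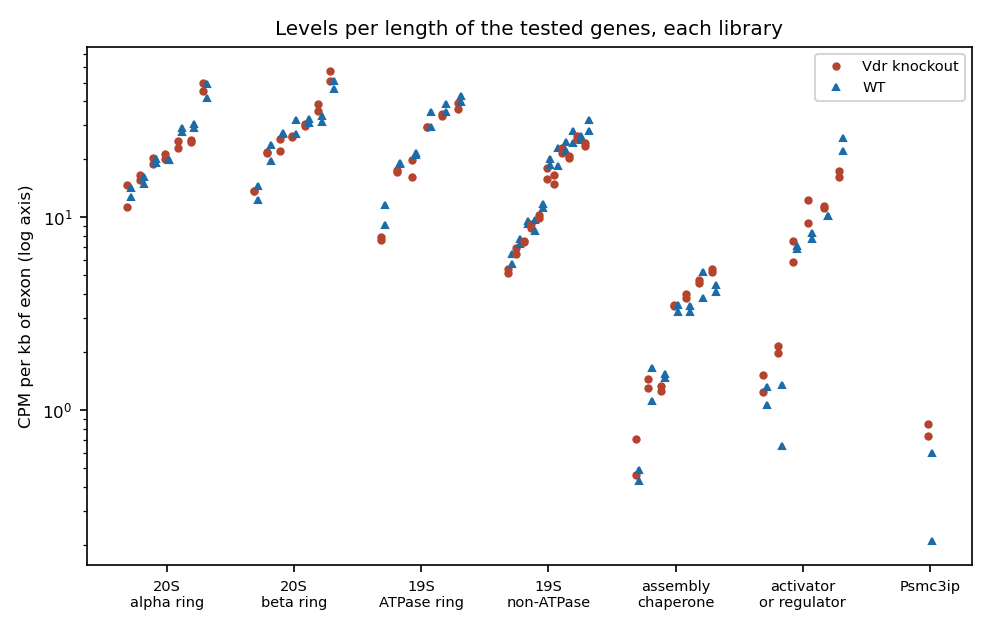
CPM per kb of exon of each tested gene by role, on a log axis, with 2 knockout libraries as circles and 2 WT libraries as triangles; genes are ordered by level within a role. The genotypes sit close together beside the spread between genes, and nearly all chaperone points lie below the subunits. In knockout replicate 1 the chaperone Psmg4 (5.22) lies just above the cap gene Psmd11 (5.17).

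The promoters of the genes were searched for motifs of pathways that control them, and 39 of the 47 matched RefSeq (GRCm38.p6). A motif was counted on either strand in the 250 bases before the start. The core of the antioxidant response element that NRF1 binds (TGACNNNGC) was in 5 of the 39, or 12.8%, against 11.5% of all 27025 genes with a promoter there. The match in Psmc6 and Psmd12 was on the antisense strand. The 5 windows are shown because this element is the best-known control of the family, with the motif in capitals and up to 12 bases on each side.
Psmb5: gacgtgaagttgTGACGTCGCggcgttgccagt
Psmb6: gactaaagagagTGACGGAGC
Psmc6: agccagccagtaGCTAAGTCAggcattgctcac
Psmd12: tctGCTGTGTCAcatttgcccccc
Psmd9: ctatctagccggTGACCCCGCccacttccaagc

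The coordinates of these windows on GRCm38.p6 were chr14:54618022-54618054 (minus strand) for Psmb5, chr11:70525336-70525356 (plus strand) for Psmb6, chr14:45329585-45329617 (plus strand) for Psmc6, chr11:107479278-107479301 (plus strand) for Psmd12 and chr5:123228147-123228179 (plus strand) for Psmd9. Their log2 fold changes were -0.19 for Psmb5, 0.15 for Psmb6, -0.24 for Psmc6, -0.19 for Psmd12 and -0.21 for Psmd9, none called. The CCAAT box of NF-Y was in 14 of 39 (35.9%, against 37.5% of all genes), the heat shock element core (GAANNTTC) in Psmb5 and Psmf1 (5.13%, against 7.73%), and the interferon regulatory factor core in Psmb3, Psmd4 and Psmd9 (7.69%, against 3.46%). The direct-repeat vitamin D response element was in 0 of 39 and in 12 of all genes (0.0444%). A match or its lack says nothing of binding in these muscles.

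Other genes of the pathway were read from lists. Of 16 tested subunits and partners outside the naming rule, 0 were called, 13 had a negative log2 fold change, and the median was -0.14. Ecpas, a proteasome adaptor, had 141 and 145 CPM in the knockout and 201 and 167 CPM in WT (-0.37 ± 0.13, adjusted p = 0.233). Zfand5, a proteasome-binding zinc finger protein induced in atrophy, had 116 and 116 CPM in the knockout and 167 and 128 CPM in WT (-0.35 ± 0.14, adjusted p = 0.310). Zfand2a, its arsenite-inducible relative, had a log2 fold change of -0.38 ± 0.18 (adjusted p = 0.390). At an unadjusted p below 0.05 this list had 2 of 16 genes lower and none higher, against 5.90% lower and 8.08% higher over all tested genes.

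Of 12 genes around NRF1, 0 were called, 8 had a negative log2 fold change, and the median was -0.12. Nfe2l1 itself had 201 and 234 CPM in the knockout and 206 and 199 CPM in WT (0.10 ± 0.13, adjusted p = 0.809), with overlapping groups. Vcp, the ATPase that pulls NRF1 and other proteins from membranes, had 160 and 168 CPM in the knockout and 223 and 197 CPM in WT (-0.36 ± 0.13, adjusted p = 0.221). Ddi2, the protease that activates NRF1, had 36.5 and 51.8 CPM in the knockout and 54.3 and 56.3 CPM in WT (-0.33 ± 0.16, adjusted p = 0.417). Ngly1, which removes sugars from NRF1, had a log2 fold change of 0.21 ± 0.13 (adjusted p = 0.512). The groups of Vcp, Ddi2 and Ngly1 did not overlap, with knockout below WT for Vcp and Ddi2 and above WT for Ngly1. Over the 12 genes the groups did not overlap in 6, with knockout below WT in 5 and above in 1. Of all tested genes 44.7% did not overlap, 21.7% with knockout below WT and 23.0% with knockout above. At an unadjusted p below 0.05, 1 of the 12 was lower, Vcp, and none higher, against the same 5.90% and 8.08%.

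Genes of ubiquitin and its activation showed no common direction, with 0 of 11 tested genes called by edgeR, 0 at an unadjusted p below 0.05 and a median of -0.0015. The 3 with the smallest p were Usp5 (0.28 ± 0.13, adjusted p = 0.394), which takes apart free ubiquitin chains, Ube2l3 (-0.18 ± 0.13, adjusted p = 0.612), a ubiquitin-conjugating enzyme, and Uba3 (-0.19 ± 0.15, adjusted p = 0.664), of NEDD8 activation. Of 11 ubiquitin ligase genes of muscle atrophy, 1 was called, where 2.03% of all tested genes were called. In this list 5 had a positive and 6 a negative log2 fold change, and the median was -0.06. Fbxo21, an F-box protein induced in atrophy, rose to 24.9 and 28.1 CPM in the knockout, against 11.9 and 11.0 CPM in WT (1.20 ± 0.15, adjusted p = 0.00245). Fbxo30 had 11.9 and 12.2 CPM in the knockout and 17.0 and 15.5 CPM in WT (-0.43 ± 0.15, adjusted p = 0.213). Fbxo32, the ligase atrogin-1, had 54.6 and 60.4 CPM in the knockout and 96.5 and 60.3 CPM in WT (-0.45 ± 0.21, adjusted p = 0.402), so that WT replicate 1 alone stood apart. Trim63, the ligase MuRF1, had 174 and 124 CPM in the knockout and 133 and 95.8 CPM in WT (0.38 ± 0.20, adjusted p = 0.472), with overlapping groups.

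The interferon-inducible counterparts of the catalytic subunits were left out of the constitutive set. Of the 3, 1 was called, where 2.03% of all tested genes were called. Psmb8 rose to 17.0 and 11.8 CPM in the knockout, against 6.16 and 6.01 CPM in WT (1.26 ± 0.21, adjusted p = 0.0135), a call lost without knockout replicate 1 (0.95, adjusted p = 0.0719). Psmb9 had 7.46 and 5.03 CPM in the knockout and 3.13 and 2.89 CPM in WT (1.08 ± 0.27, adjusted p = 0.0754), and Psmb10 had 12.5 and 12.9 CPM in the knockout and 7.77 and 8.82 CPM in WT (0.61 ± 0.17, adjusted p = 0.114). Of 13 interferon-gamma inducible genes of antigen presentation, 6 were called higher and none lower, against 1.61% and 0.413% of all tested genes. The median of the 13 was 0.82. Among the called genes were H2-K1 (0.95 ± 0.13) and B2m (0.84 ± 0.14), which form class I molecules, and the peptide carrier gene Tap1 (1.29 ± 0.24). The difference between these genes and the constitutive ones was not tested.

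**Figure D5:**
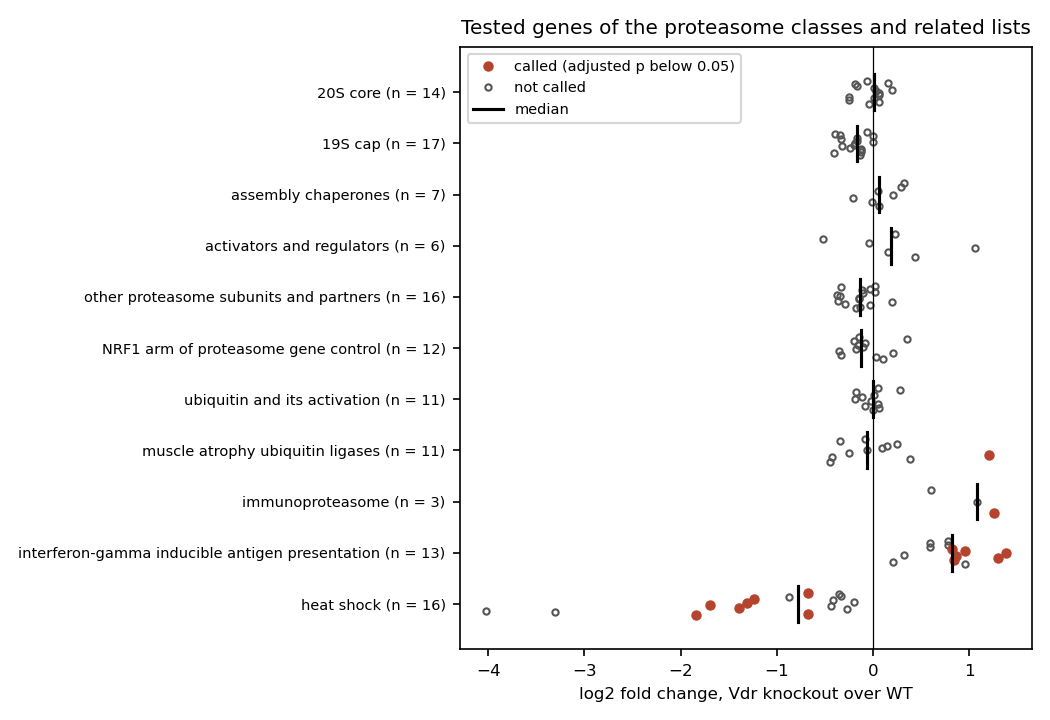
Log2 fold change, knockout over WT, of tested genes in the proteasome roles and related lists; filled points are called (adjusted p below 0.05), open points are not, and bars are medians. Constitutive proteasome roles hold no filled point, while the muscle atrophy ligase, immunoproteasome, antigen presentation and heat shock lists do.

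Markers of other cells were read in the same libraries, where 1.61% of all tested genes were called higher and 0.413% lower. Fat-cell markers were called higher in 10 of 12 genes (median 1.77, led by Cfd at 2.23 and Cidec at 1.93) and summed to 6789 and 6024 CPM in the knockout and 2364 and 2554 CPM in WT. Red blood cell markers were called higher in 2 of 5 tested genes (Hbb-bt and Alas2; median 1.04) and summed to 551 and 390.1 CPM in the knockout and 243 and 266 CPM in WT. Of 2 tested lymphocyte markers Igkc was called higher (3.33) and Ighm was not (0.10), and the list of 9 summed to 43.8 and 36.3 CPM in the knockout and 33.4 and 31.1 CPM in WT. Of 2 tested neutrophil markers, S100a8 (3.99) and S100a9 (5.09), none was called, and the list of 8 summed to 28.7 and 3.07 CPM in the knockout and 0.663 and 1.09 CPM in WT. No gene was called among 10 macrophage markers (median 0.22; Cd14 1.18 and C1qa 0.47), 8 endothelial markers (-0.24; Cdh5 -0.41 and Vwf -0.36) and 10 fibroblast and tendon markers (-0.35; Scx -0.94 and Thbs4 -0.49). Those lists summed to 386 and 416 CPM (macrophage), 204 and 195 CPM (endothelial) and 4232 and 3651 CPM (fibroblast and tendon) in the knockout, and to 328 and 381, 215 and 235, and 4453 and 4035 CPM in WT. No marker of these lists was at 0 counts in all 4 libraries. Knockout replicate 1 held most of the neutrophil counts: the genes Ngp and Mpo had 87 and 22 counts there, 3 and 0 in knockout replicate 2 and 0 in both WT libraries. Among the muscle fibre markers, Ttn (-0.49 ± 0.15, adjusted p = 0.144) and Neb (-0.22 ± 0.14, adjusted p = 0.527) had the smallest p. In whole muscle, fewer cells of a type and less RNA per cell cannot be told apart, and the part of other cells in the proteasome values was not tested.

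The 47 genes are scattered over the genome, with 10 on chromosome 11, 6 each on chromosomes 2 and 14, and 1 on the X chromosome, Psmd10. Psmd10, a chaperone also known as gankyrin, had 5.18 and 5.12 CPM in the knockout and 4.74 and 5.15 CPM in WT (0.06 ± 0.21, adjusted p = 0.947), with overlapping groups. Annotated pseudogenes named after Psmb5, Psmb6 and Psmb7, whose transcripts are 89.2% to 94.9% identical to those of the genes, had 0 counts in each library. Pseudogenes under other names were not looked for.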

How the data were processed

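The authors deposited raw counts (reads per Ensembl gene ID), with 1 table for each library. The submitters' processing notes name Trimmomatic, STAR, DESeq2 and the build GRCm38 (mm10), without roles; tool settings were not given in the labels. Of 55573 gene IDs, 55480 matched GENCODE M21. The counts were strand-specific by a check on overlapping genes: of genes covered by exons of a gene on the other strand, 124 of 470 were counted, against 1 of 740 covered on their own strand. Genes were kept by filterByExpr (minimum count 10, minimum total 15) and knockout was compared with WT by edgeR 4.0.16 (R 4.3.3; TMM, quasi-likelihood F test, robust, legacy option off) with genotype as the only term, over all 4 libraries. SE came from the F statistic, and 95% intervals from it with the fit's degrees of freedom. DESeq2 1.42.0 was an alternative. The members and lists were chosen with earlier results of these data known. Named genes were, per role, the 2 with the smallest p, the highest and lowest per length, and those not tested. Per pathway list they were called genes up to 6 and the 3 with the smallest p, and per marker list the 2 with the smallest p. The rule was not followed for the heat shock list, where no gene was named. For the antigen presentation list only H2-K1, B2m and Tap1 of the called genes were named. Psma1, Psma2, Psma4, Psma7, Psmb3, Psmb7, Psmc1, Psmd1, Psmd4, Psmd8, Psmd10, Psmd12, Psmd13, Psmd14, Psme2, Psme2b, Psme3, Adrm1, Sem1, Nfe2l1, Trim63, Ngp and Mpo were named outside this rule, after their values were seen. Of the lists' symbols, only Paaf1 matched no gene. Neighbours on the same strand and near-identical copies can shift counts. Exons of Psmb5, Psmd1, Psme2b and Psmg3 overlap those of another gene on their own strand.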

Additional observations from a re-analysis of the deposited data

How the results depend on the processing

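Every alternative was run with 1 choice changed. The count of all genes called was 265, and 476 without a filter on low counts; it ran from 216 to 332 when 1 library was left out, where the lone library of a group is assumed to vary like the others. Proteasome genes called higher were 0 in each alternative. Proteasome genes called lower were 0, but 1 with DESeq2 and 1 without the filter, and from 0 to 1 when 1 library was left out; in each of these the gene was Psme4. The median of the tested proteasome genes (-0.05) ran from -0.10 (without WT replicate 2) to -0.003 (library totals only). The older quasi-likelihood option of edgeR, added after the data were seen, called 323 genes and 0 proteasome genes. The replicate numbers are not said to pair libraries: with 2 pairs, deviations of same-numbered libraries correlated at 0.039 over 13076 genes, and a fit with the replicate number as a block called 346 genes, of which 0 were proteasome genes. The median of the assembly chaperones was 0.06, and 0.13 without mitochondrial, Rn7sk and sex-linked genes, 0.16 without WT replicate 1 and 0.18 without WT replicate 2. That of the 20S core was 0.0058, and -0.10 without WT replicate 2. With 2 libraries a group the common biological coefficient of variation was 13.6% and the median SE of a tested proteasome gene was 0.13 on the log2 scale.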
